A study of Homo sapiens with 4 samples.

Results

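Receptor tyrosine kinases of the MET, TAM, FGF, PDGF and IGF receptor families were compared between subsets, labelled A549, of cells sorted on ICAM1. The 10 genes were listed by name (MET, AXL, MERTK, FGFR1, FGFR2, FGFR3, FGFR4, PDGFRA, PDGFRB and IGF1R), and each matched 1 of the 58735 gene identifiers in the count table. A549 is a human lung adenocarcinoma line, here labelled wild-type and grown in serum-containing medium. Cells were stained with an antibody against ICAM1, a surface adhesion glycoprotein, and sorted by flow cytometry. RNA was sequenced from 2 ICAM1-High and 2 ICAM1-Low libraries. The labels give both subsets the same line and name no other treatment, and nothing in the labels tells whether separate cultures were used for them. P-values therefore reflect how far these 4 libraries scatter, and that scatter may be technical.

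Most receptor tyrosine kinases bind a ligand outside the cell, pair with a second receptor and phosphorylate tyrosines on themselves. These tyrosines recruit adaptors and switch on the RAS-MAPK and PI3K-AKT pathways. MET is the receptor of hepatocyte growth factor and a known driver gene of lung adenocarcinoma. AXL and MERTK belong to the TAM family, whose ligands GAS6 and protein S bridge the receptor to phosphatidylserine, and AXL is known for its part in resistance of lung cancer cells to EGFR inhibitors. FGF receptors bind fibroblast growth factors together with heparan sulfate or a Klotho protein, PDGF receptors are typical of mesenchymal cells, and IGF1R, a relative of the insulin receptor, binds both insulin-like growth factors.

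The 4 libraries held 17271825 to 17638647 counts in ICAM1-High and 16272591 to 16665362 in ICAM1-Low. The sorting marker ICAM1 was at 113 ± 3.60 CPM in ICAM1-High against 4.75 ± 0.202 CPM in ICAM1-Low (CPM, counts per 1000000 after TMM scaling; SD, n = 2 each here and throughout). The keratin genes KRT8, KRT18 and KRT19 and the cadherin gene CDH1 had counts in every library of both subsets, while EPCAM was at 2.79 ± 0.985 CPM in ICAM1-High against 4.32 ± 0.489 CPM in ICAM1-Low. CDKN2A, a cell cycle inhibitor gene whose loss from both chromosomes is a known trait of A549, had 1009 and 1214 counts in ICAM1-High but 0 in each ICAM1-Low library. Of its neighbours, CDKN2B had 174 and 182 counts in ICAM1-High and 0 in each ICAM1-Low library, and MTAP had 459 and 463 in ICAM1-High against 1 and 8 in ICAM1-Low. These genes set both ICAM1-High libraries at odds with the label A549, and every difference below sets those libraries against the ICAM1-Low ones. Each subset has only these 2 libraries, so no value without them can be had.

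Of the 10 receptors, 3 were called higher in ICAM1-High (FGFR2, FGFR3 and PDGFRB) and 5 lower (MET, AXL, FGFR1, FGFR4 and IGF1R). The remaining 2 did not pass the test (MERTK and PDGFRA). The sign of IGF1R turned with scaling by library size alone, so no direction is given for it below. PDGFRB kept its call in 7 of 12 alternative settings. A gene counts as called when edgeR's quasi-likelihood test gave it an adjusted p (Benjamini-Hochberg, over all genes tested) below 0.05. All 10 passed the filter on low counts, FGFR2 and PDGFRB through ICAM1-High alone, so those 2 could hardly come out equal. In the whole table of 16250 tested genes, 30.4% were called higher and 29.4% lower, with 4935 and 4771 genes (6735 and 3124 with scaling by library size alone), and the receptors' counts are to be read against these shares; 8 of 10 were called in either direction, against 59.7%. The median log2 fold change was -0.24 over the receptors and 0.01 over all genes tested. Libraries of the subsets did not overlap for 8 of the 10 receptors, against 78.3% of all genes. When a difference of more than 1.5-fold was required (edgeR glmTreat), FGFR2, FGFR3, MET and AXL were still called, 2 higher and 2 lower, where 11.6% and 6.71% of all genes were, or 18.3% in either direction. A positive log2 fold change means more in ICAM1-High, and each stands with the standard error (SE) of the fit. In bulk RNA, fewer cells that carry a transcript and less of it per cell cannot be told apart.

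**Figure D1:**
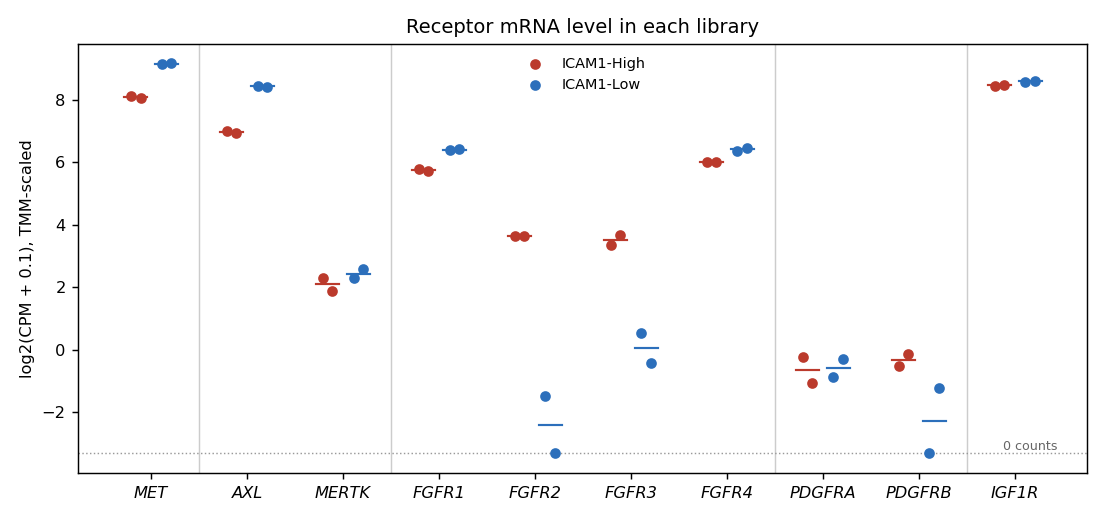
Level of each receptor mRNA in each library on a log scale, log2 of TMM-scaled CPM plus 0.1, with ICAM1-High left of ICAM1-Low; points are libraries and bars are means of the plotted values. FGFR2 and FGFR3 are separated by the widest gaps, with 1 ICAM1-Low library at 0 counts for FGFR2, while the ICAM1-High points of MET and AXL lie below the ICAM1-Low points.

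The promoters of the 4 receptors that passed the 1.5-fold test are shown because they are the stretch of sequence that sets where each of these transcripts starts. RefSeq windows of 300 bases, 250 before and 50 after a start (GRCh38.p14), were found for 9 of the 10 genes; FGFR1 is named only. The windows nearest the annotated gene starts were chr10:121598395-121598694 on the minus strand for FGFR2, chr4:1793043-1793342 on the plus strand for FGFR3, chr7:116671946-116672245 on the plus strand for MET and chr19:41218973-41219272 on the plus strand for AXL. A second AXL start has the window chr19:41226505-41226804, also on the plus strand; FGFR2 has 5 windows in all, of which 1 is printed. Each is written 5′ to 3′ on the gene's strand, and capitals mark matches to the SP1 motif GGGCGG, the TEAD motif GGAATG or the AP-1 motif TGANTCA on either strand.
FGFR2: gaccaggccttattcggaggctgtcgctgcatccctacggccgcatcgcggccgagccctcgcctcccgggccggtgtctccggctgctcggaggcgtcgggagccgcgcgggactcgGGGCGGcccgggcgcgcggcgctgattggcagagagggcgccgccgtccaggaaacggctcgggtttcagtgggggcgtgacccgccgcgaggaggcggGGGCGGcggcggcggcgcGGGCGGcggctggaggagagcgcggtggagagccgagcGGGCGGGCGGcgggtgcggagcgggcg
FGFR3: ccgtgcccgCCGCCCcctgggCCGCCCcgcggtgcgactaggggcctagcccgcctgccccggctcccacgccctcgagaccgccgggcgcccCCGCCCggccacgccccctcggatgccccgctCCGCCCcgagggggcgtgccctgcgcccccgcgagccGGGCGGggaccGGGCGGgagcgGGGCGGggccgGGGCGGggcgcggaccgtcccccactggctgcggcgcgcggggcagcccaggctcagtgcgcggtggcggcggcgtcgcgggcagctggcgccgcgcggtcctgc
MET: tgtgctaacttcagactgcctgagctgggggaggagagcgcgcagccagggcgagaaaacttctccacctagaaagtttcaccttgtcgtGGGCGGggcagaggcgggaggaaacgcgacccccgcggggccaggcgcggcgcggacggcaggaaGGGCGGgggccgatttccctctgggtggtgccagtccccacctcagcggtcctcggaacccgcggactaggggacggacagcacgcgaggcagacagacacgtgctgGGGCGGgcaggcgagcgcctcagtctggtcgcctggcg
AXL, first start: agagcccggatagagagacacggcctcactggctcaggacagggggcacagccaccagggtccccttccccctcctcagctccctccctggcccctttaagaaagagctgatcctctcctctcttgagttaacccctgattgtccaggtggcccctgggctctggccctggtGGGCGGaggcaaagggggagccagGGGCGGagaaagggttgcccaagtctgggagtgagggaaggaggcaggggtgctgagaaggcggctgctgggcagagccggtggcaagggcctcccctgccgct
AXL, second start: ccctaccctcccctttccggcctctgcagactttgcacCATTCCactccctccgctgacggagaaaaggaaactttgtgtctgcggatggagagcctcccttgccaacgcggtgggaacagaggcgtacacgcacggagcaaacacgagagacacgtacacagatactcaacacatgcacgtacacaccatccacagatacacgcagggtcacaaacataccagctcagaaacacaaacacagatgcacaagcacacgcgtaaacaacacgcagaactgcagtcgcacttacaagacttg

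In these windows FGFR2 held 5 SP1 matches, of which 2 overlap each other, FGFR3 held 8, MET 3 and the first AXL window 2. The motif stood in 44.9% of the 34943 distinct human windows. GC content was 79.3% in FGFR2 and 86.3% in FGFR3, against 69.3% in MET and 66.0% in the first AXL window, and the median over all windows was 58.7%. CpG pairs numbered 52 in FGFR2 and 51 in FGFR3, 30 in MET and 7 in the first AXL window. The only TEAD match among these 5 windows was in the second AXL window, 1 match where 14.0% of all windows held at least 1, and 2 of the FGFR2 windows not printed held 1 each. An AP-1 match was in none of the 5 and in 7.72% of all windows. IGF1R, whose level hardly differed, had a GC content of 79.7% and 55 CpG pairs. In the windows nearest their starts, FGFR4, called lower, had 78.7% and 30, and MERTK, not called, had 78.3% and 32. PDGFRB, called higher, had 59.3% and 11. PDGFRA, not called, had 47.0% and 8. Whether these values go with the differences between the subsets was not tested. A match is a run of letters and not a binding site, and the files hold no data on which start was used.

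MET (ENSG00000105976, chromosome 7, 116672390 to 116798386, plus strand, GRCh38) was the receptor with the highest level per length in both subsets. MET had 5238 and 4938 counts in ICAM1-High and 8976 and 8855 in ICAM1-Low, or 281 and 269 CPM against 574 and 577 CPM. Both ICAM1-High libraries lay far below both ICAM1-Low libraries, and replicates lay close together. MET fell by 1.07 (SE 0.04, adjusted p = 1.14e-34), which makes it 2.09-fold lower in ICAM1-High, and 4.25% of all tested genes had a smaller log2 fold change.

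The MET ligand and the proteins that activate it moved in both directions. HGF, the ligand, was scarce, with 8 and 4 counts in ICAM1-High and 21 and 26 in ICAM1-Low, and fell by 2.20 (SE 0.50, adjusted p = 9.88e-05); it passed the filter through ICAM1-Low alone. ST14, which encodes matriptase, a membrane protease able to activate pro-HGF, had 231 and 266 counts in ICAM1-High and 6 and 3 in ICAM1-Low. It rose by 5.50 (SE 0.29, adjusted p = 5.67e-27) and passed the filter through ICAM1-High alone. Of the inhibitors of such proteases, SPINT1 rose by 0.93 (SE 0.23) and SPINT2 fell by 0.57 (SE 0.04), to 269 ± 3.69 CPM in ICAM1-High against 400.0 ± 10.9 CPM in ICAM1-Low. MST1R, which encodes RON, the closest relative of MET, fell by 0.66 (SE 0.09), and its ligand gene MST1 did not pass the test (log2 fold change 0.30, adjusted p = 0.224).

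AXL (ENSG00000167601, chromosome 19, 41219203 to 41261766, plus strand) had the largest fall of the 10. Its levels were 128 and 122 CPM in ICAM1-High and 349 and 344 CPM in ICAM1-Low, from 2390 and 2241 counts against 5457 and 5283. The libraries of each subset lay close together and the subsets did not overlap. AXL fell by 1.47 (SE 0.05, adjusted p = 8.96e-40), 2.77-fold lower, and 1.77% of tested genes had a smaller log2 fold change. An antisense gene overlaps AXL, with 10 counts in each ICAM1-High library and 21 and 20 in the ICAM1-Low libraries. The counter and strand setting are not given, so the effect of the overlap on the AXL values was not tested.

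MERTK (ENSG00000153208, chromosome 2, 111898479 to 112029561, plus strand), the TAM receptor best known from phagocytes, was at 4.83 and 3.59 CPM in ICAM1-High and 4.80 and 5.93 CPM in ICAM1-Low. The subsets overlapped, and the log2 fold change of -0.35 (SE 0.21, adjusted p = 0.146) did not pass the test. Its 95% interval ran from -0.75 to 0.06, and without ICAM1-High replicate 1 the gene was called lower (log2 fold change -0.58, adjusted p = 0.0476). TYRO3, the remaining TAM receptor, went the other way to AXL, with 395 and 389 counts in ICAM1-High and 188 and 198 in ICAM1-Low, and rose by 0.77 (SE 0.11, adjusted p = 1.69e-08). Of the TAM ligands, GAS6 rose by 1.43 (SE 0.20) to 9.48 ± 0.627 CPM in ICAM1-High against 3.51 ± 1.55 CPM in ICAM1-Low. PROS1, which encodes protein S, fell by 0.42 (SE 0.07) to 53.7 ± 2.69 CPM against 71.7 ± 0.487 CPM in ICAM1-Low. LGALS3, a galectin reported to bind MERTK, rose by 0.90 (SE 0.07).

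**Figure D2:**
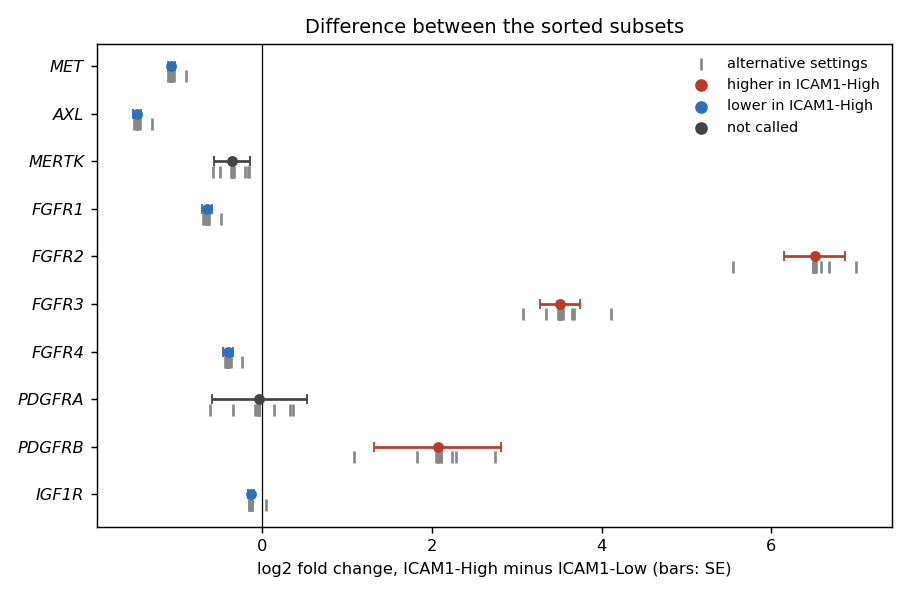
Log2 fold change of each receptor, ICAM1-High minus ICAM1-Low, with its standard error (points and bars) and the values under the alternative settings (grey ticks; fits in which 1 subset is left with 0 counts are not drawn). MET and AXL lie left of 0 and FGFR2 and FGFR3 far right of it at each tick, while the ticks of IGF1R and PDGFRA fall on both sides of 0.

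The 4 FGF receptors split into a pair that was higher and a pair that was lower in ICAM1-High. FGFR2 (ENSG00000066468, chromosome 10, 121478334 to 121598458, minus strand) had 229 and 230 counts in ICAM1-High and 4 and 0 in ICAM1-Low. It was thus a modest transcript in ICAM1-High, at 12.3 and 12.5 CPM, and at or near nothing in ICAM1-Low, where the floor of 3 counts lies at 0.192 and 0.196 CPM. FGFR2 rose by 6.51 (SE 0.36, adjusted p = 6.24e-26), and 0.806% of tested genes had a larger log2 fold change. FGFR2 passed the filter through ICAM1-High alone, so this test could hardly come out equal. The ratio of summed counts was 96.1, with a 95% exact binomial interval of 37.3 to 354 that covers counting error only. Its size rests on the ICAM1-Low libraries, being 5.55 on the log2 scale without replicate 2 and, against the floor of 3 counts, at least 63.4-fold higher without replicate 1.

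FGFR3 (ENSG00000068078, chromosome 4, 1793293 to 1808872, plus strand) had 191 and 233 counts in ICAM1-High and 21 and 10 in ICAM1-Low, or 10.2 and 12.7 CPM against 1.34 and 0.652 CPM. The subsets were wide apart, but the ICAM1-Low libraries themselves differed by more in proportion than the ICAM1-High ones. FGFR3 rose by 3.51 (SE 0.24, adjusted p = 1.46e-20), 11.4-fold higher, and the log2 fold change was 4.11 without ICAM1-Low replicate 1 and 3.08 without replicate 2. Both receptors are known for activating mutations in other carcinomas and in skeletal disorders, which gene counts do not show.

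FGFR1 (ENSG00000077782, chromosome 8, 38400215 to 38468834, minus strand), the form typical of mesenchymal cells, had 54.9 and 52.9 CPM in ICAM1-High and 83.7 and 85.7 CPM in ICAM1-Low. It fell by 0.65 (SE 0.06, adjusted p = 1.44e-14), 1.57-fold lower, with no overlap of the subsets. LETM2 overlaps FGFR1 on the other strand, with 71 and 67 counts in ICAM1-High against 142 and 144 in ICAM1-Low, where FGFR1 had 1024 and 971 against 1308 and 1315. FGFR4 (ENSG00000160867, chromosome 5, 177086886 to 177098144, plus strand), known in liver as the receptor of FGF19 with the co-receptor beta-Klotho, had 65.3 and 64.3 CPM in ICAM1-High and 83.4 and 87.6 CPM in ICAM1-Low. It fell by 0.40 (SE 0.06, adjusted p = 4.12e-08), 1.32-fold lower, and this difference, like that of FGFR1, did not exceed 1.5-fold by the test of that size (adjusted p = 1.00 for FGFR4 and 0.212 for FGFR1).

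Per kilobase of annotated exon, FGFR4 made up most of the FGF receptor mRNA in both subsets. Its share of the summed level of the 4 genes was 63.0 ± 1.06% in ICAM1-High and 73.6 ± 0.735% in ICAM1-Low. FGFR1 made up 18.3 ± 0.605% in ICAM1-High and 25.4 ± 0.193% in ICAM1-Low. FGFR3 made up 11.1 ± 1.60% in ICAM1-High and 0.861 ± 0.441% in ICAM1-Low, and FGFR2 7.68 ± 0.0579% in ICAM1-High and 0.0714 ± 0.101% in ICAM1-Low. The summed level itself was somewhat lower in ICAM1-High, at 21.3 ± 0.128 CPM per kb against 24.1 ± 0.601 CPM per kb in ICAM1-Low. With the length of the longest coding transcript in place of all exons, a setting chosen after seeing the data, FGFR4 made up 59.2% in ICAM1-High and 65.8% in ICAM1-Low, and FGFR1 25.4% in ICAM1-High and 33.6% in ICAM1-Low. With that length FGFR3 held 7.37% and FGFR2 8.09% in ICAM1-High, so the order of these 2 depends on the length used. The summed level was then 35.1 ± 0.0384 CPM per kb in ICAM1-High and 41.6 ± 1.05 CPM per kb in ICAM1-Low. Exact permutation over 2 libraries against 2 cannot give a two-sided p under 0.333, so the shares are given without a test.

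**Figure D3:**
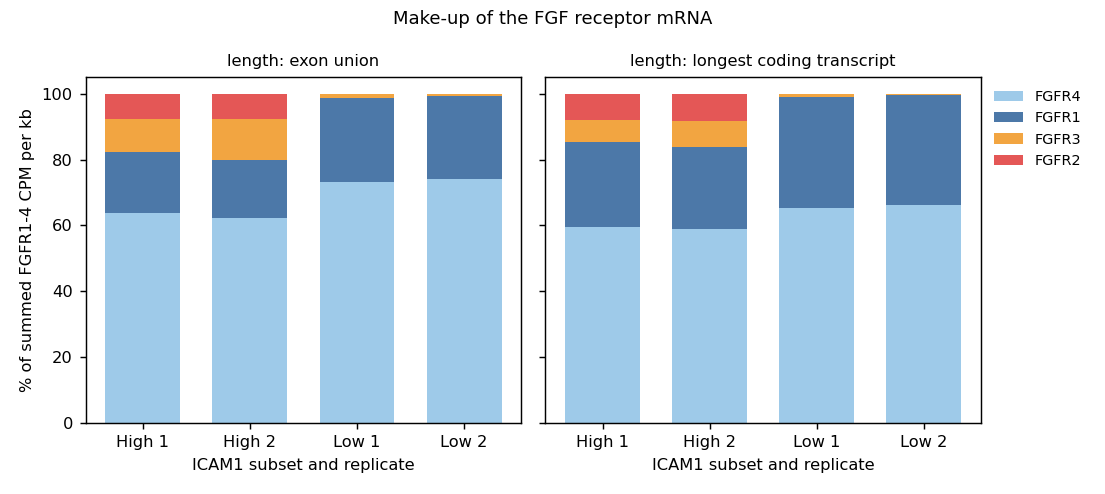
Share of each FGF receptor in the summed level per kilobase of the 4 FGF receptor genes, in percent, for each library, by the union of exons (left) and the longest coding transcript (right). FGFR3 and FGFR2 fill a visible upper part of the ICAM1-High bars and almost none of the ICAM1-Low bars, and FGFR4 is the largest part of every bar.

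FGF ligands were mostly silent. Of 18 FGF genes listed, 2 were abundant enough to test, and 7 had 0 counts in all libraries. FGF2, a broadly acting ligand, was at 122 ± 9.88 CPM in ICAM1-High against 158 ± 1.74 CPM in ICAM1-Low and fell by 0.37 (SE 0.05, adjusted p = 5.55e-09). FGF18 had 23 and 26 counts in ICAM1-High and 1 and 1 in ICAM1-Low, a ratio of 20.5 (95% exact binomial interval 5.38 to 174), and passed the filter through ICAM1-High alone. Of 8 partner genes, 5 were tested, 2 rose and 1 fell. Among all tested genes, 30.4% were called higher and 29.4% lower. FGFBP1, a secreted carrier of FGFs, rose by 1.84 (SE 0.60) from few counts, 16 and 19 in ICAM1-High against 6 and 2 in ICAM1-Low. It passed the filter through ICAM1-High alone, and was not called with the DESeq2 Wald test (adjusted p = 0.0809), without ICAM1-Low replicate 2 (adjusted p = 0.156) or without ICAM1-High replicate 2 (adjusted p = 0.0931). FRS2, the docking protein of FGF receptors, rose by 0.23 (SE 0.09, adjusted p = 0.0193), a call lost with the DESeq2 Wald test (adjusted p = 0.124), without a filter, and when either ICAM1-Low library or ICAM1-High replicate 1 was left out. FGFBP3 fell by 0.80 (SE 0.28, adjusted p = 0.0111), a call lost without ICAM1-High replicate 1 (adjusted p = 0.0776) and with the DESeq2 Wald test (adjusted p = 0.0979). The beta-Klotho gene KLB, at 12 and 6 counts in ICAM1-High and 2 and 4 in ICAM1-Low, was too low to test.

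PDGFRA and PDGFRB were near the limit of detection in both subsets. PDGFRA (ENSG00000134853, chromosome 4, 54229097 to 54298247, plus strand) had 14 and 7 counts in ICAM1-High and 7 and 11 in ICAM1-Low. The subsets overlapped, and the log2 fold change of -0.03 had a 95% interval of -1.13 to 1.06, so a 2-fold difference in either direction would be within its error. PDGFRB (ENSG00000113721, chromosome 5, 150113837 to 150155872, minus strand) had 11 and 15 counts in ICAM1-High and 0 and 5 in ICAM1-Low. The log2 fold change of PDGFRB was 2.07 (SE 0.75, adjusted p = 0.0120), the call with the largest adjusted p of the 8. PDGFRB passed the filter through ICAM1-High alone. It was not called without ICAM1-High replicate 2 (log2 fold change 1.82, adjusted p = 0.150), without ICAM1-Low replicate 1 (1.08, adjusted p = 0.301) or with the DESeq2 Wald test (2.11, adjusted p = 0.124).

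PDGF receptors mark fibroblasts and pericytes, so markers of those cells are given beside them, to be read against the 30.4% of all tested genes called higher and 29.4% called lower. Of 12 fibroblast markers, 5 passed the filter and 4 of those were called higher and 0 lower, and the summed level of all 12 was 76.9 and 87.9 CPM in ICAM1-High and 47.0 and 49.3 CPM in ICAM1-Low. Of the 4 called higher, LUM and FAP passed the filter through ICAM1-High alone. COL1A1 had 505 and 551 counts in ICAM1-High against 60 and 66 in ICAM1-Low, LUM had 43 and 56 against 3 and 5 in ICAM1-Low, and FAP had 17 and 25 against 0 and 1 in ICAM1-Low. COL1A2 had 0 counts in both ICAM1-High libraries and 0 and 1 in ICAM1-Low, COL3A1 had 0 in both ICAM1-High libraries and 1 and 1 in ICAM1-Low, and POSTN and DPT had 0 in all libraries. Of 9 pericyte and smooth muscle markers, 7 passed the filter, 1 of them through ICAM1-High alone, with 5 higher and 0 lower. Their summed level was 262 and 286 CPM in ICAM1-High and 132 and 131 CPM in ICAM1-Low. Most of that sum was MCAM and NOTCH3. MCAM was on average at 89.2 CPM in ICAM1-High against 14.0 CPM in ICAM1-Low, and NOTCH3 at 160 CPM against 110 CPM. Of 10 endothelial markers 4 were tested, 2 of them through ICAM1-High alone, with 3 higher and 1 lower, and a summed level of 11.4 and 11.8 CPM in ICAM1-High against 5.69 and 6.06 CPM in ICAM1-Low. Of 10 leukocyte markers 2 were tested, with 1 higher and 1 lower; their summed level was 25.9 and 24.7 CPM in ICAM1-High and 18.1 and 18.9 CPM in ICAM1-Low, and PTPRC, CD163 and CD3E had 0 counts in all libraries. The 2 tested were CD14, with 343 counts in each ICAM1-High library against 146 in each ICAM1-Low library, and ITGAM, with 128 and 103 in ICAM1-High against 133 and 140 in ICAM1-Low. Of 8 epithelial markers 7 were tested, with 5 higher and 2 lower (EPCAM and ELF3). Their summed level was 4560 and 4710 CPM in ICAM1-High against 2620 and 2560 CPM in ICAM1-Low. Most of that sum was KRT8 and KRT18. KRT8 was on average at 3070 CPM in ICAM1-High against 1290 CPM in ICAM1-Low, and KRT18 at 1260 CPM against 1030 CPM. The part of other cell types in the receptor differences was not tested.

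All 4 PDGF ligand genes were tested, and 1 was called, as higher, where 30.4% of all tested genes were. PDGFA, a ligand of PDGFRA, rose by 0.39 (SE 0.09, adjusted p = 2.69e-04), to 28.5 ± 0.948 CPM in ICAM1-High against 21.8 ± 1.07 CPM in ICAM1-Low. PDGFB, PDGFC and PDGFD did not pass the test, with log2 fold changes of 0.31, 0.30 and -0.04.

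IGF1R (ENSG00000140443, chromosome 15, 98648539 to 98964530, plus strand) was abundant and differed least among the called receptors. It had 352 and 359 CPM in ICAM1-High and 385 and 392 CPM in ICAM1-Low, from 6563 and 6597 counts against 6026 and 6014. The subsets did not overlap but lay close, and the log2 fold change of IGF1R was -0.13 (SE 0.04, adjusted p = 0.00495), with a 95% interval of -0.21 to -0.05. That difference is smaller than the 0.17 that scaling to library size alone, without TMM factors, added to the median gene's log2 fold change. With that scaling the IGF1R value was 0.05 and not called (adjusted p = 0.329), and without ICAM1-Low replicate 2 it was not called either (adjusted p = 0.104), so no direction is given for IGF1R.

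Around IGF1R, the insulin receptor gene INSR rose by 0.46 (SE 0.10) to 25.6 ± 0.994 CPM in ICAM1-High against 18.6 ± 0.937 CPM in ICAM1-Low. The receptor substrate gene IRS2 fell by 1.42 (SE 0.05, adjusted p = 3.25e-38), to 119 ± 6.86 CPM in ICAM1-High against 318 ± 1.99 CPM in ICAM1-Low, while IRS1 fell by 0.23 (SE 0.05), a call lost with scaling by library size alone (adjusted p = 0.344). IGF2R, a receptor without kinase activity that clears IGF2, did not pass the test (log2 fold change -0.04), and with scaling by library size alone it was called higher (0.13, adjusted p = 0.00411). The ligand genes IGF1 and IGF2 had at most 3 counts in any library, and INS had 0.

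Set in order by level per kilobase of exon, MET led in both subsets, at 39.1 ± 1.22 CPM per kb in ICAM1-High and 81.8 ± 0.327 CPM per kb in ICAM1-Low. AXL and IGF1R exchanged places: AXL was at 24.3 ± 0.851 CPM per kb in ICAM1-High, below IGF1R, and at 67.3 ± 0.627 CPM per kb in ICAM1-Low, above IGF1R. IGF1R was at 25.5 ± 0.360 CPM per kb in ICAM1-High and 27.9 ± 0.340 CPM per kb in ICAM1-Low. FGFR4 and then FGFR1 came next in both. Neighbours in this order were separate in every library in ICAM1-High, but some gaps were narrow. In ICAM1-High replicate 1, IGF1R was at 25.3 and AXL at 24.9 CPM per kb. PDGFRB was at 0.0827 and PDGFRA at 0.0772 CPM per kb in that library, from 11 and 14 counts, so their order is not resolved. In ICAM1-Low, PDGFRB (0 and 5 counts) and FGFR2 (4 and 0 counts) overlapped. With the longest coding transcript as length, FGFR2 overlapped FGFR3 and PDGFRB overlapped PDGFRA in ICAM1-High, and FGFR2 again overlapped PDGFRB in ICAM1-Low. The summed level of all 10 was 111 ± 1.78 CPM per kb in ICAM1-High and 202 ± 0.863 CPM per kb in ICAM1-Low, with MET and AXL holding 35.1% and 21.8% of it in ICAM1-High against 40.4% and 33.3% in ICAM1-Low.

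Genes that carry the receptor signal moved in both directions. Of 25 adaptor and ubiquitin ligase genes 23 were tested, of which 5 rose and 13 fell. Among all tested genes, 30.4% were called higher and 29.4% lower. The median log2 fold change of this list was -0.19, and with scaling by library size alone 5 fell. The members with the smallest adjusted p were NEDD4, a ubiquitin ligase that fell by 1.43 (SE 0.04), PLCG1, a phospholipase docked to these receptors that rose by 1.15 (SE 0.08), PTPN11, the phosphatase SHP2, that fell by 0.45 (SE 0.04), and SOS2, a RAS exchange factor, that fell by 0.74 (SE 0.08). Of 5 sheddase and inhibitor genes, 2 rose and 2 fell. ADAM17, a protease known to shed AXL and MERTK, fell by 0.88 (SE 0.05) with 1596 and 1444 counts in ICAM1-High against 2355 and 2321 in ICAM1-Low. The metalloprotease inhibitor genes TIMP3 and TIMP1 rose by 3.25 (SE 0.48) and 0.24 (SE 0.06), TIMP3 with 56 and 37 counts in ICAM1-High against 6 and 2 in ICAM1-Low; TIMP3 passed the filter through ICAM1-High alone.

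Of 12 PI3K-AKT genes 10 were tested, of which 3 rose and 2 fell, with a median of 0.04; with scaling by library size alone 8 rose. AKT1, the gene of a central kinase of the branch, rose by 0.37 (SE 0.06), and the regulatory subunit gene PIK3R3 rose by 2.59 (SE 0.20). PIK3CD rose by 0.37 (SE 0.12), a call lost with the DESeq2 Wald test (adjusted p = 0.0905), when ICAM1-High replicate 2 was left out (adjusted p = 0.283) and when ICAM1-Low replicate 2 was (adjusted p = 0.192). Of 26 further receptor tyrosine kinase genes outside the ERBB and Eph families 14 were tested, of which 7 rose and 2 fell, with a median of 0.30. DDR2, a collagen receptor, had 796 and 937 counts in ICAM1-High and 10 and 5 in ICAM1-Low, and rose by 6.57 (SE 0.19). ROR2, a WNT5A receptor, had 273 and 272 counts in ICAM1-High and 6 and 12 in ICAM1-Low and rose by 4.65 (SE 0.24). Its relative ROR1 fell by 1.22 (SE 0.09), and DDR1 rose by 0.37 (SE 0.05). The counts of these lists are to be read against the 30.4% and 29.4% of all genes called higher and lower.

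**Figure D4:**
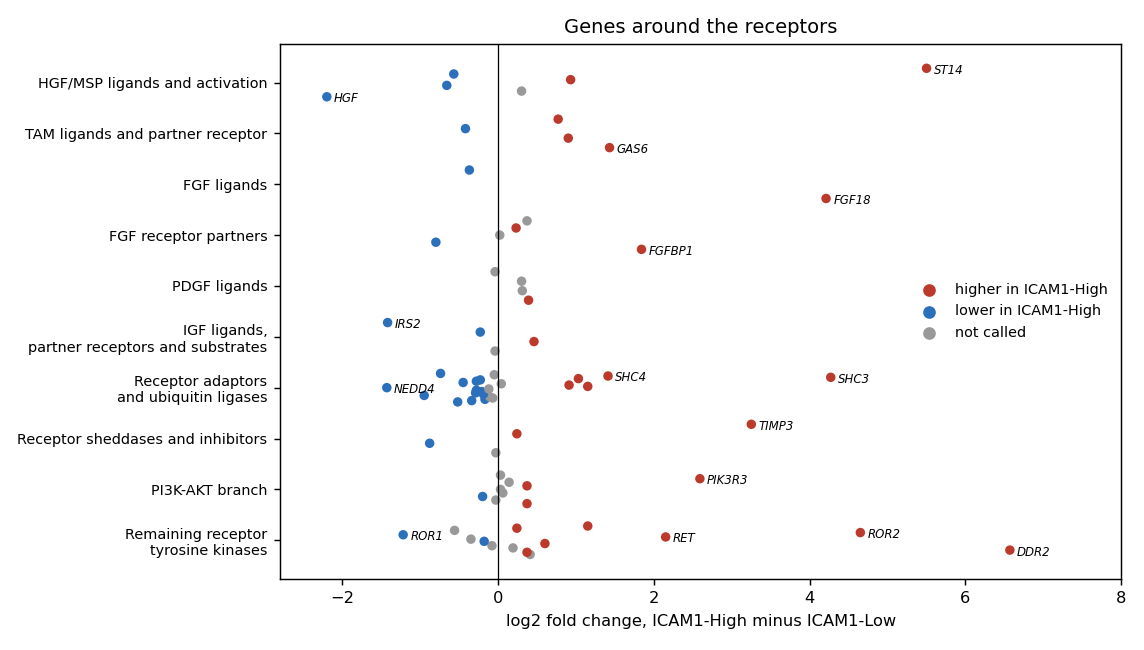
Log2 fold change, ICAM1-High minus ICAM1-Low, of tested genes of 10 lists around the receptors, of which 2 genes are not shown; each point is a gene, coloured by its call, and genes beyond 1.2 in size are named. Each list but the PDGF ligands holds points on both sides of 0 that were called, and DDR2, ST14 and ROR2 lie farthest to the right.

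The receptors lie at separate places in the genome, on 8 chromosomes, and their nearest tested protein-coding neighbours give a view of each locus. Of 20 such neighbours 6 were higher, 12 lower and 2 not called, where 30.4% of all tested genes were higher, 29.4% lower and 59.7% called in either direction. Both neighbours moved in the same direction as the receptor at MET, AXL, FGFR1 and FGFR3, but by less. At AXL, HNRNPUL1, which lies 0.73 kb beyond it, had a log2 fold change of -0.14 (SE 0.04) and CYP2S1, 11.7 kb before it, -0.59 (SE 0.06), against -1.47 for AXL; the HNRNPUL1 value is smaller than the 0.17 by which the scaling can move all genes. At MET, CAV1 and CAPZA2 fell by 0.55 and 0.21. At FGFR3, LETM1 lies 2.61 kb away and rose by 0.21 (SE 0.06), and TACC3 rose by 0.57. At FGFR2 the neighbours ATE1 and WDR11, 142 and 569 kb away, went the other way to the receptor and fell by 0.77 and 0.31. At FGFR4 the neighbours ZNF346 and NSD1 rose by 0.44 and 0.25. ARSI, 140 kb from PDGFRB, rose by 1.95 (SE 0.29), with 4.40 and 4.63 CPM in ICAM1-High against 1.28 and 1.04 CPM in ICAM1-Low. HMGXB3, 60.7 kb away on the other side of PDGFRB, was called lower, with a log2 fold change of -0.15 (SE 0.06). That value too is smaller than the 0.17 by which the scaling can move all genes.

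**Figure D5:**
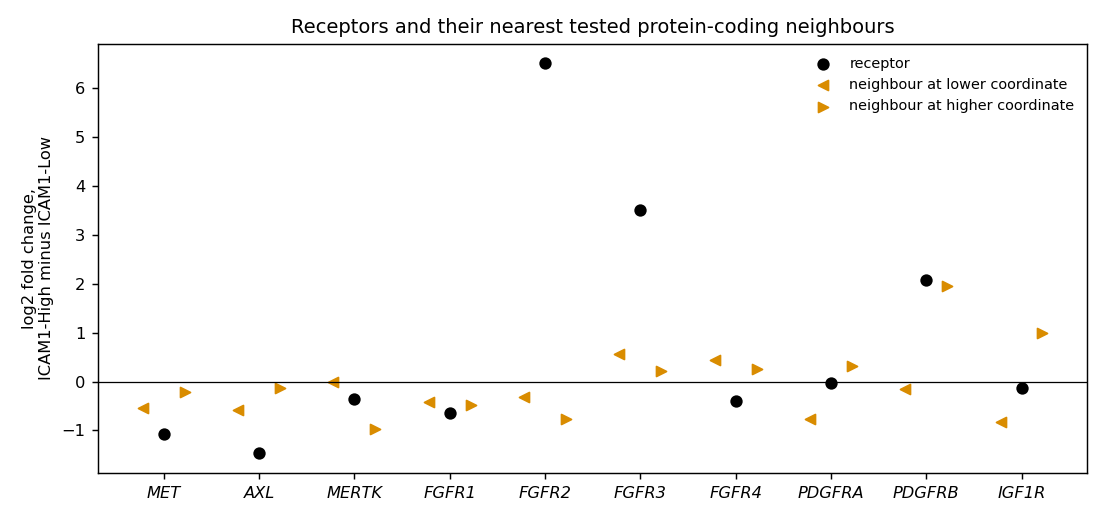
Log2 fold change, ICAM1-High minus ICAM1-Low, of each receptor (black) and of the nearest tested protein-coding gene on either side (orange). The neighbours of FGFR2 and FGFR3 lie between -0.77 and 0.57 while the receptors lie at 6.51 and 3.51.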

How the data were processed

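RNA was sequenced from 2 ICAM1-High and 2 ICAM1-Low libraries of sorted cells labelled A549; Trizol and a SMARTer mRNA kit were used, per the labels' protocols. The deposited values are whole-number counts of reads for each gene, not normalized, in 1 column per library, matched by its description. FastQC 0.10.1 and GRCh38 were used, per the submitters' processing notes; which aligner, counter, strand setting and treatment of multi-mapping reads were used is not given in the sources used here. Values of overlapping genes and of similar receptor paralogs are therefore uncertain. All 58735 identifiers were in GENCODE release 29, which gave positions and lengths, and 58207 had a symbol.

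Counts were tested with edgeR 4.0.16 in R 4.3.3 (robust quasi-likelihood test, TMM scaling, default filter with a minimum count of 10 and total of 15, 16250 genes tested). TMM factors were 1.059 and 1.065 in ICAM1-High and 0.9395 and 0.9439 in ICAM1-Low. Intervals are 1.96 SE either way for fold changes, and exact binomial for ratios of counts; the ratios' intervals and the floor of 3 counts cover counting error only. Libraries of a subset differed by more than sampling noise (chi-square per degree of freedom 3.09 in ICAM1-High and 1.85 in ICAM1-Low). On simulated counts for this comparison, 50 genes were altered at each size among 15882. The test recovered 36% of those altered 1.25-fold, 78% of the 1.5-fold, 78% of the 2-fold and 100% of the 4-fold ones. It made 3 false calls. Few genes were altered there, while 59.7% of real genes were called, so the figures are not rates for the real comparison. They are not split by level, so recovery at the low counts of PDGFRA and PDGFRB cannot be read from them.

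The 10 receptors, the 10 context lists, the 5 marker lists and the tests were chosen with earlier results of these data known. Named were all receptors, ICAM1, CDKN2A, CDKN2B and MTAP, every tested gene of the ligand lists, up to 4 called genes of each other list by smallest adjusted p, and the neighbours; EPCAM, KLB, ligand genes too low to test, overlapping genes and other markers were named after their values were seen. For 2 genes of the lists, single values are not reported here. Alternatives were DESeq2 size factors, library size alone, other filters, DESeq2 1.42.0, limma-voom (limma 3.58.1), the replicate number as a block, a 1.5-fold and a stricter threshold, each library left out, and, added after seeing the data, another transcript length. A subset left with a lone library takes its spread from the other subset. Promoter windows are from RefSeq (GRCh38.p14).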

Additional observations from a re-analysis of the deposited data

How the results depend on the processing

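Each receptor was refitted under 13 alternatives (12 for the PDGF receptors, which a mean of at least 1 CPM leaves out). MET kept its call in all 13 (log2 fold change -1.11 to -0.89), and so did AXL (-1.51 to -1.30), FGFR2 and FGFR3. For FGFR2, which passed the default filter through ICAM1-High alone, the call could hardly be lost. FGFR1 (-0.69 to -0.48) and FGFR4 (-0.44 to -0.23) were lost only when more than 1.5-fold was required. PDGFRB kept its call in 7 of 12. With library size alone, IGF1R was 0.05, PDGFRA 0.14, PDGFD 0.14 and IGF2R 0.13, each reversed. Leaving out 1 library gave -0.61 to 0.36 for PDGFRA (0.33 without ICAM1-Low replicate 2) and -0.14 to 0.05 for PDGFD (0.01 without ICAM1-High replicate 2). Over 53 named genes, 632 of 684 values kept direction and side of the threshold, 42 lost the call, 2 gained it and 8 reversed.

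Of the receptors, 2 were called higher and 2 lower with the 1.5-fold threshold, against 3 and 5. That threshold called 1879 genes higher and 1090 lower, against 4935 and 4771, and 13 and 8 of the context genes, against 27 and 27. With library size alone, 3124 genes were called lower against 6735 higher, and 16 context genes lower against 38 higher. Leaving out 1 library gave 2 to 3 receptors higher and 4 to 6 lower, 4235 to 4535 genes higher and 4115 to 4621 lower, and 23 to 26 context genes in each direction. Deviations of same-numbered libraries had a correlation of 0.0417 over all tested genes, which with 2 libraries per subset cannot tell whether they were paired. The labels name no batch shared by a replicate number, so the main test used no pairing. With the replicate number as a block, 4976 genes were higher and 4836 lower, and the receptors' counts were 3 and 5 as before. Depth limits PDGFRA, PDGFRB and MERTK, and FGFR2 and FGFR3 in ICAM1-Low.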
